A study of Rattus norvegicus with 20 samples.

Results

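Heat shock proteins and chaperonins are the proteins that fold, hold, refold or hand over for degradation the other proteins of the cell. Their genes were followed here in the medial prefrontal cortex (mPFC) of rats treated chronically with LSD. Members were chosen by gene symbol, as the genes whose names mark them as Hsp90, Hsp70, Hsp110, Hsp60, Hsp10 or small heat shock proteins, as J-proteins of the A, B or C class (*Dnaja*, *Dnajb*, *Dnajc*), or as subunits of the cytosolic chaperonin TRiC/CCT (*Tcp1*, *Cct2* to *Cct8*). *Hspa5* was left out by the same rule. In all, 82 of the 31038 listed genes matched, and 74 of these reached 5 reads in 10 or more of the 20 rats. These 74 genes, of 16605 tested, are described below by family, with 2 Hsp90 genes, 8 of the Hsp70 and 3 of the Hsp110 kind, 2 genes of the mitochondrial chaperonin, 9 of TRiC/CCT, 6 small heat shock proteins, 4, 11 and 26 J-proteins of classes A, B and C, and 3 other genes that share the *Hspb* prefix. The symbol rule does not pick by function. Of the last 3 genes, *Hspbp1* encodes a nucleotide exchange factor of Hsp70, and *Hspb11* a subunit of the intraflagellar transport machinery.

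Messenger RNA was sequenced from the mPFC of 20 male Sprague-Dawley rats, 10 injected intraperitoneally with LSD at 0.16 mg/kg and 10 with sterile saline, on alternate days over a period of 90 days, with 1 library per rat. The rats were 6 to 8 weeks old when injections began, were housed individually, and had been without drug for 3 weeks according to the series description. The methods of the study give an older starting age and a longer interval, and both entries are shared by the LSD-treated rats and the controls. The tissue came from 1 hemisphere of frozen brains, and each value is therefore a level in bulk cortex, in which fewer cells of a type and less RNA per cell cannot be told apart.

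The members work as a relay. Hsp70 proteins bind unfolded stretches of a client, J-proteins deliver clients and stimulate the ATPase of Hsp70, and exchange factors such as the Hsp110 proteins reset it. Hsp90 completes the folding of kinases and receptors, TRiC/CCT encloses actin, tubulin and other obligate clients, Hsp60 with its lid Hsp10 does the same inside mitochondria, and small heat shock proteins hold unfolded clients without ATP. Heat, oxidants and other proteotoxic stress raise many of these genes through the heat shock factor HSF1, which binds promoters at repeats of the units GAA and TTC, the heat shock element.

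The promoter letters that bear on this grouping are shown here because members that share an element can be compared with members that lack it. All were read from the RefSeq promoter windows of assembly GRCr8, which reach from 250 bases before to 50 bases after the start of a gene and were found by symbol for 62 of the 74 members. The files themselves were counted on rn6, so these positions are not positions in the files. The first 3 promoters hold a run of 3 or more heat shock units, in capitals, shortly before the start of members that are textbook HSF1 targets:
*Hspe1*, chr9:64084242-64084299, + strand: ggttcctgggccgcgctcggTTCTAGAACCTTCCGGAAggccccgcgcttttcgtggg
*Hsph1*, chr12:10427312-10427364, + strand: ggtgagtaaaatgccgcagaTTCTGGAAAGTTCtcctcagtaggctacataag
*Hspa8*, chr8:50080439-50080491, + strand: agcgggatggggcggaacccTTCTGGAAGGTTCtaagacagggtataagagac
The next 4 hold single pairs of units, in capitals, in members whose fold change is described below:
*Hspa9*, chr18:26828455-26828502, − strand: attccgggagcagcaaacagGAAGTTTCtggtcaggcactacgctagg
*Dnajc18*, chr18:27577577-27577624, − strand: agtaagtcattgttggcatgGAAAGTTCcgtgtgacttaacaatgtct
*Hspb6*, chr1:94934122-94934250, + strand: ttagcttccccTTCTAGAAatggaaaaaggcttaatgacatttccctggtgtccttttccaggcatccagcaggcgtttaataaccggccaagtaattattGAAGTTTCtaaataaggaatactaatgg
*Hspb1*, chr12:26432383-26432450, − strand: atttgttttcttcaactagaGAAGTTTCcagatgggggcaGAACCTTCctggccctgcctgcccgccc
The last 2 hold the endoplasmic reticulum (ER) stress element, CCAAT and CCACG parted by 9 bases, in capitals, through which the unfolded protein response of the ER raises its chaperones:
*Dnajc3*, chr15:102432514-102432572, + strand: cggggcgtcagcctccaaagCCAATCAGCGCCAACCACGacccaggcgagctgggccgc
*Hsp90b1*, chr7:23012327-23012489, − strand: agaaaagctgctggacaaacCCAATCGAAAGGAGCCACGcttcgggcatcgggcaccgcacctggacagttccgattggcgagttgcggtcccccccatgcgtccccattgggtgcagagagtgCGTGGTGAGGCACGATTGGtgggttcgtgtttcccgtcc

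A pair of facing units, written GAANNTTC or TTCNNGAA, was found in the windows of 18 of the 62 members (29%), against 15.9% of all 33469 promoter windows. Each of these spellings is its own reverse complement, so both strands were covered. A run of 3 units, GAANNTTCNNGAA or TTCNNGAANNTTC, contains such a pair and was found in 6 members (9.68%; *Cct4*, *Dnaja1*, *Hspa8*, *Hspd1*, *Hspe1* and *Hsph1*), against 0.798% of all windows. The ER stress element, searched on both strands, was found in 2 members (3.23%; *Dnajc3* and *Hsp90b1*), against 0.0657% of all windows. The last 2 searches were chosen after the fold changes were known. A match of letters describes the window and does not show that a factor binds there.

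Libraries of LSD-treated rats were deeper, with 16346629 to 25552681 reads on genes (median 20271086) against 11098076 to 24201351 (median 16815424) in controls, and 4 of the 5 deepest libraries, those of LSD rats 7, 8, 9 and 10 and saline rat 2, belonged to the LSD group. The median correlation of a library with the others lay between 0.986, in saline rat 9, and 0.994. Levels are given as RPM, reads scaled to the library's total on genes after TMM normalisation, which allow a gene to be compared between rats but not with genes of other length. Neuronal markers were abundant, with *Snap25*, of the synaptic fusion machinery, between 1454 and 2309 RPM and *Slc17a7*, the vesicular glutamate transporter of cortical neurons, between 1583 and 2637 RPM. Of 8 neuronal markers, 4 had positive and 4 negative fold changes. *Gad2* was called higher (log2 fold change 0.23, adjusted p = 0.0369) and *Tubb3* lower (-0.30, adjusted p = 0.0218), while *Slc17a7* was not called (-0.17, adjusted p = 0.153). Of 6 astrocyte markers, *Slc1a2* was called higher (0.41, adjusted p = 0.0423). Of 3 blood markers, all negative, *Hbb* was called lower (-0.50, adjusted p = 0.0434). All 6 oligodendrocyte markers had negative fold changes (median log2 fold change -0.39), with summed levels of 2102 to 5546 RPM in LSD-treated rats and 2130 to 7186 RPM in controls, and 1 of them, *Cldn11*, passed the test, whereas 3 had an unadjusted p under 0.05 and DESeq2 called *Mag* and *Cldn11*. All 5 striatal markers were lower as well (median -0.80, summed level 150 to 281 against 173 to 435 RPM, none past the test with edgeR or DESeq2 and 5 at an unadjusted p under 0.05), and all 8 immediate early genes were higher (median 0.19, summed level 669 to 1763 against 450 to 1764 RPM, none past either test or at an unadjusted p under 0.05). The part of these differences in the values below was not tested.

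LSD-treated rats were compared with controls in 1 edgeR quasi-likelihood fit over all 16605 genes, with p-values adjusted by Benjamini-Hochberg and called under 0.05. Of the 74 members, 6 were up-regulated (8.11%) and 5 were down-regulated (6.76%). Of all genes tested, 6.48% were higher and 8.54% were lower in LSD-treated rats by the same rule, so that the share of members called, 14.9%, was close to the 15.0% of all genes. Scaled by total counts instead of TMM, 6 members rose and 2 fell, against 1504 and 858 of all genes, where TMM gave 1076 and 1418. Most of these calls were lost when log2 library size was added to the fit as a covariate, a choice made after the data were seen. *Dnajb14* alone of the 11 then kept its call (log2 fold change 0.49, adjusted p = 0.0302), and the other 10 kept their direction at an adjusted p of 0.0525 to 0.293. *Dnajc3*, *Dnajc18*, *Dnajc13*, *Hspa4l* and *Hspa9* were then at 0.19, 0.14, 0.20, 0.086 and 0.083. Without the covariate these were 0.35, 0.30, 0.22, 0.21 and 0.18. *Dnajb3*, *Hspbp1*, *Dnajc19*, *Dnajb2* and *Hspb6* were at -0.30, -0.17, -0.26, -0.20 and -0.16. Without the covariate they were at -0.36, -0.32, -0.26, -0.26 and -0.21. With *Dnajc8*, *Dnajc15* and *Hspe1* lower (-0.22, -0.27 and -0.24, adjusted p = 0.0395, 0.0361 and 0.0484), 4 members (5.41%) were called in that fit, against 7.06% of all genes. With all libraries thinned to the size of the smallest, 10 of the 11 remained, *Dnajb3* was lost and *Hspb2* was gained. Thinning evens out the number of reads but leaves the relative levels in each rat, so it cannot separate treatment from levels that follow depth. Depth and treatment thus partly coincide in these libraries, and the calls described below rest on a fit without depth. The differences were small. The median absolute log2 fold change was 0.11, against 0.14 over all genes, and 42 were positive and 32 negative. The members past the threshold were J-proteins, a mitochondrial Hsp70, an Hsp110, a small heat shock protein and an exchange factor, whereas none of the 2 Hsp90 and 11 chaperonin genes passed it with edgeR. Without adjustment *Hsp90b1* and *Cct7* had p under 0.05, and DESeq2 called *Cct7* alone of these.

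**Figure D1:**
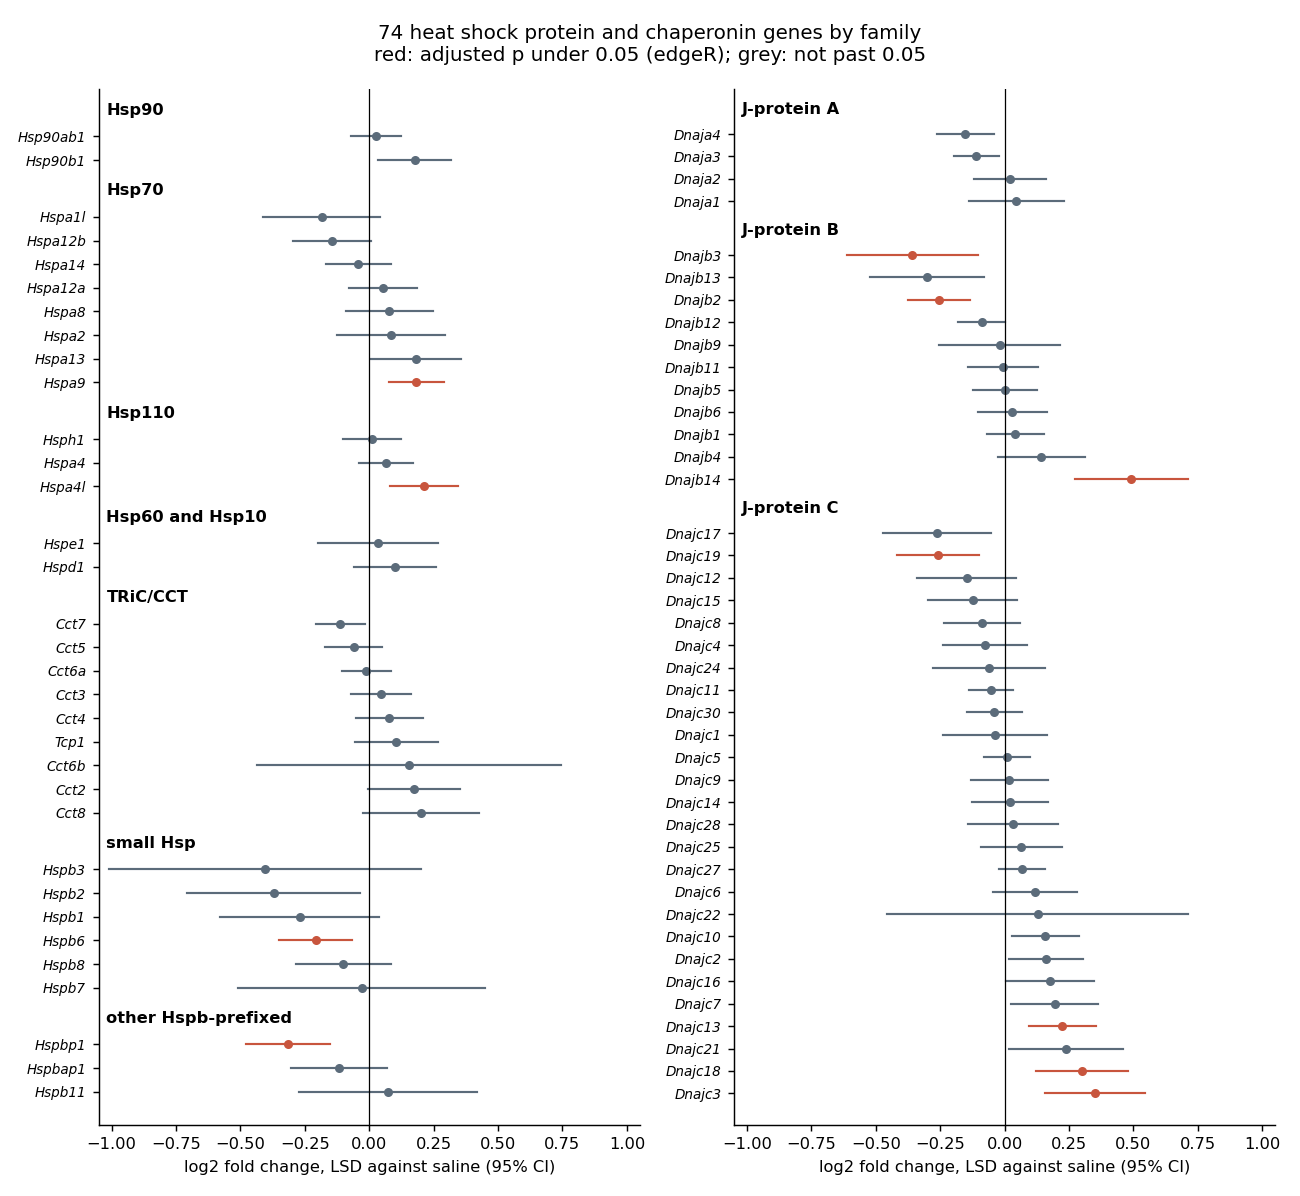
Log2 fold change of each of the 74 members in LSD-treated rats against controls (points) with its 95% confidence interval (lines), by family, with members past an adjusted p of 0.05 in red. The red points lie on both sides of 0, from -0.36 for *Dnajb3* to 0.49 for *Dnajb14*, and the intervals of the Hsp60 and Hsp10 genes cross 0.

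The largest rise was that of *Dnajb14*, a J-protein anchored in the ER membrane that takes part in the clearance of misfolded membrane proteins. Its level was 14.0 RPM in the lowest, 18.4 in the median and 20.9 in the highest LSD-treated rat, and 7.05, 13.8 and 15.2 RPM in the corresponding controls. The groups nearly separated, with 9 of 10 LSD-treated rats above the highest control. The difference was 40.6% (log2 fold change 0.49, standard error 0.10, 95% confidence interval 0.27 to 0.71, adjusted p = 0.0068). Its lowest value belonged to saline rat 9, and without that rat the log2 fold change was 0.42 (adjusted p = 0.0043).

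*Dnajc3*, the ER-luminal J-protein also known as p58IPK that restrains the stress kinase PERK, ranged from 11.4 to 14.8 RPM around a median of 13.3 in LSD-treated rats and from 7.53 to 15.4 RPM around 9.66 in controls. All LSD-treated rats lay above the median control, but the highest single value was that of a control. It rose by 27.5% (log2 fold change 0.35, standard error 0.09, adjusted p = 0.0165). *Dnajc18*, a relative of *Dnajb14* in the same membrane, had 22.2, 23.8 and 27.9 RPM in the lowest, median and highest LSD-treated rat and 14.7, 19.5 and 24.9 RPM in controls. Again all 10 LSD-treated rats exceeded the median control, and 3 exceeded every control. The rise was 23.2% (log2 fold change 0.30, standard error 0.09, adjusted p = 0.0228).

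The ER group was not uniform. Of the 9 J-proteins listed for the ER, a list that does not hold *Dnajc18*, 2 passed the test with edgeR and with DESeq2, *Dnajb14* and *Dnajc3*. Of all genes, 15.0% passed with edgeR. An unadjusted p under 0.05 was found for 5 of the 9, these 2 and *Dnajb12*, *Dnajc10* and *Dnajc16*. Fold changes were positive for 5 and negative for 4 (8 positive with total counts, 7 with offsets for gene span), and the median was 0.07. *Dnajc10*, which reduces disulphides during ER-associated degradation, was at 94.0 to 121 RPM in LSD-treated rats and 83.3 to 118 RPM in controls (log2 fold change 0.16, adjusted p = 0.0856). *Dnajb9* and *Dnajb11*, the J-proteins that serve the ER Hsp70 BiP and are classical targets of the unfolded protein response, had log2 fold changes of -0.02 (95% confidence interval -0.25 to 0.22) and -0.01 (-0.14 to 0.13). *Hsp90b1*, the ER Hsp90 also known as GRP94, was at 217, 249 and 294 RPM in the lowest, median and highest LSD-treated rat and at 193, 226 and 277 RPM in controls. The groups overlapped widely although 9 of 10 LSD-treated rats lay above the median control, and its log2 fold change of 0.18 (95% confidence interval 0.03 to 0.32) did not pass the threshold (adjusted p = 0.0782). It passed in 3 of the 20 fits that left out 1 rat, those without LSD rat 1, saline rat 2 and saline rat 10 (adjusted p = 0.0400, 0.0191 and 0.0483). With library size as a covariate its log2 fold change was 0.023 (adjusted p = 0.803). *Hspa5*, which encodes BiP itself and is no member, had 258 to 329 RPM in LSD-treated rats and 248 to 331 RPM in controls, and its log2 fold change came to -0.08 (adjusted p = 0.338). The 2 members with the ER stress element shown above, *Dnajc3* and *Hsp90b1*, thus had the values 0.35 and 0.18, of which only the first passed the test. With library size as a covariate these were 0.19 and 0.023, and neither passed.

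*Dnajc13*, an endosomal J-protein that works on clathrin and on the sorting of receptors, had 48.3, 52.8 and 57.5 RPM in the lowest, median and highest LSD-treated rat and 33.9, 45.9 and 51.6 RPM in controls. In 6 of the 10 LSD-treated rats it exceeded every control. It rose by 16.8% (log2 fold change 0.22, standard error 0.06, adjusted p = 0.0191), and by 0.18 on the log2 scale (adjusted p = 0.0208) without saline rat 9, its lowest value. The fixed list of synaptic and endocytic J-proteins held 3 further genes, all with positive fold changes (*Dnajc5* negative with offsets for gene span) and none past the test. *Dnajc6*, the auxilin that uncoats clathrin vesicles at synapses, was at 370 to 467 RPM in LSD-treated rats and 272 to 449 RPM in controls (log2 fold change 0.12, adjusted p = 0.324). *Dnajc5*, the cysteine string protein that protects SNAREs at the synaptic vesicle, ranged from 487 to 577 RPM and from 500 to 575 RPM, and its log2 fold change came to 0.01 (95% confidence interval -0.08 to 0.10). *Dnajc27*, whose place on this list was not examined here, stood at a log2 fold change of 0.07 (adjusted p = 0.289).

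*Hspa4l*, an Hsp110 protein that resets Hsp70 after heat or osmotic stress, had 111, 124 and 134 RPM in the lowest, median and highest LSD-treated rat and 83.6, 104 and 128 RPM in controls. The ranges overlapped, with all 10 LSD-treated rats above the median control. The rise was 15.9% (log2 fold change 0.21, standard error 0.06, adjusted p = 0.0258). Its close relatives were nearer to 0. *Hspa4* stood at a log2 fold change of 0.06 (95% confidence interval -0.04 to 0.17), and *Hsph1*, the heat-inducible Hsp110, one of 0.01 (-0.10 to 0.12).

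*Hspa9*, the Hsp70 of mitochondria also known as mortalin, which pulls proteins through the inner membrane and folds them in the matrix, was the only Hsp70 gene of 8 past the test. Its level was 78.8, 82.7 and 92.6 RPM in the lowest, median and highest LSD-treated rat and 65.1, 73.3 and 86.0 RPM in controls. All LSD-treated rats lay above the median control and 3 lay above every control. The rise was 13.4% (log2 fold change 0.18, standard error 0.05, adjusted p = 0.0209). Among the other genes of the family, *Hspa13*, a microsomal Hsp70, was at 24.7 to 29.4 RPM against 16.8 to 28.7 RPM (log2 fold change 0.18, adjusted p = 0.139), and *Hspa1l*, an Hsp70 best known from testis, had the lowest fold change (-0.19, adjusted p = 0.257).

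*Dnajc19*, which encodes a J-protein of the inner mitochondrial membrane that stimulates the Hsp70 of the same import motor, went the other way. It had 14.9, 19.7 and 23.8 RPM in the lowest, median and highest LSD-treated rat and 19.7, 23.4 and 29.4 RPM in controls, and 5 LSD-treated rats lay below every control. It was down-regulated by 16.4% (log2 fold change -0.26, standard error 0.08, adjusted p = 0.0261). Of the 7 mitochondrial J-proteins, 6 had negative fold changes (5 with total counts, 4 with offsets for gene span, all 7 with library size as a covariate). *Dnajc19* alone passed the test with edgeR, and the group median was -0.07. DESeq2 called *Dnaja3* as well. With library size as a covariate, *Dnajc15* alone of the 7 was called, as lower (-0.27, adjusted p = 0.0361). *Dnaja3*, the J-protein partner of mortalin in the matrix, was at 78.6 to 89.9 RPM against 79.2 to 99.0 RPM, with no LSD-treated rat above the median control (log2 fold change -0.11, adjusted p = 0.0776). The chaperonin of the matrix was near 0, with log2 fold changes of 0.10 for *Hspd1* (95% confidence interval -0.06 to 0.26) and 0.03 for *Hspe1* (-0.20 to 0.27), both negative with library size as a covariate (-0.079 and -0.24). Among 10 further mitochondrial chaperones and proteases, *Clpp*, the protease subunit, and *Dnlz*, which keeps mortalin soluble, were down-regulated (log2 fold changes -0.31 and -0.29, adjusted p = 0.0192 and 0.0408), and none was up-regulated with edgeR, although DESeq2 called *Clpx* higher. None of the 10 passed with library size as a covariate.

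**Figure D2:**
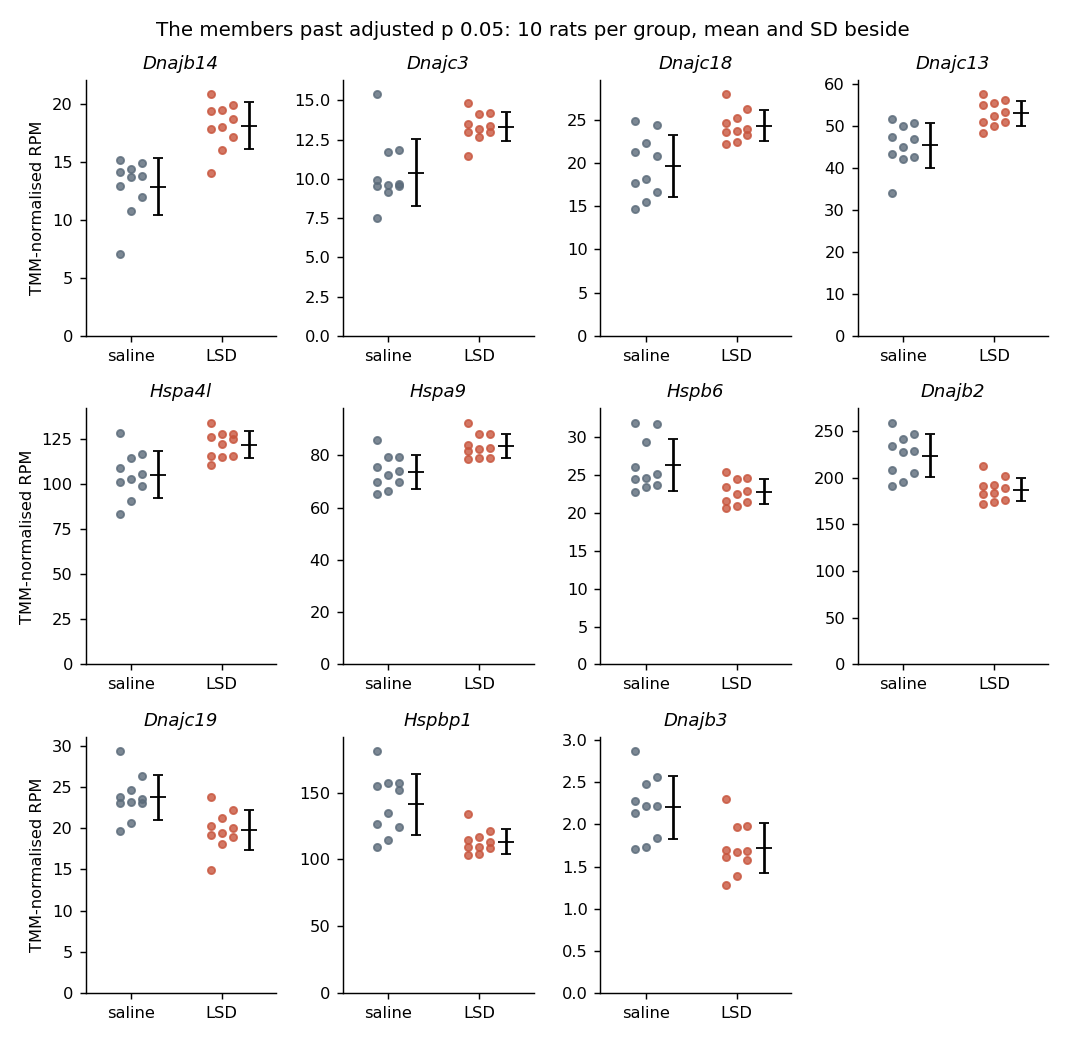
Level of the 11 members past the threshold in each of 10 control rats (grey) and 10 LSD-treated rats (red), in TMM-normalised RPM on axes that start at 0, with the mean and SD beside each group. The groups overlap in all 11 panels, least in *Dnajb14*, where 9 LSD-treated rats lie above every control.

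The down-regulated members outside mitochondria were *Hspbp1*, *Dnajb2*, *Hspb6* and *Dnajb3*. *Hspbp1*, an exchange factor that acts on cytosolic Hsp70, had 103, 111 and 134 RPM in the lowest, median and highest LSD-treated rat and 109, 144 and 181 RPM in controls. No LSD-treated rat reached the median control. It fell by 19.6% (log2 fold change -0.32, standard error 0.08, adjusted p = 0.0119). *Dnajb2*, a J-protein enriched in neurons that binds ubiquitin and steers clients to the proteasome, had 172, 186 and 212 RPM and 191, 228 and 259 RPM. Here 6 LSD-treated rats lay below every control and none above the median control. The decrease was 16.3% (log2 fold change -0.26, standard error 0.06, adjusted p = 0.0084).

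*Hspb6*, the small heat shock protein Hsp20, had 20.7, 22.7 and 25.4 RPM in the lowest, median and highest LSD-treated rat and 22.8, 24.9 and 31.9 RPM in controls, with 5 LSD-treated rats below every control. The log2 difference was -0.21 (standard error 0.07, adjusted p = 0.0400). *Dnajb3*, a J-protein best known from testis, rested on 24 to 57 reads per rat and had 1.29, 1.68 and 2.30 RPM against 1.71, 2.22 and 2.87 RPM, with 7 LSD-treated rats below every control. The log2 difference was -0.36 (standard error 0.12, adjusted p = 0.0470). These 2 calls were the least stable, since *Hspb6* kept an adjusted p under 0.05 in 9 and *Dnajb3* in 5 of the 20 fits that left out 1 rat.

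All 6 small heat shock proteins had negative log2 fold changes, with a median of -0.24, although only *Hspb6* passed the test. *Hspb7* turned positive with total counts, offsets for gene span or library size as a covariate, where the medians were -0.19, -0.16 and -0.21. *Hspb1*, the Hsp27 of reactive glia and stressed neurons, had 6.40, 10.3 and 14.3 RPM in the lowest, median and highest LSD-treated rat and 7.77, 12.3 and 16.2 RPM in controls, and 8 of 10 LSD-treated rats did not exceed the median control. Its interval included 0 (log2 fold change -0.27, 95% confidence interval -0.58 to 0.04, adjusted p = 0.219). *Hspb8*, which works with *Bag3* in selective autophagy, stood at a log2 fold change of -0.10 (95% confidence interval -0.29 to 0.08). *Hspb3* and *Hspb7*, at 2 to 10 and 5 to 24 reads per rat, marked the ends of the family with -0.40 (95% confidence interval -1.01 to 0.20) and -0.03 (-0.51 to 0.45). *Cryab*, a small heat shock protein outside the symbol rule that oligodendrocytes and astrocytes make in quantity, was at 18.8 to 34.7 RPM against 16.8 to 45.5 RPM (log2 fold change -0.28, adjusted p = 0.218). With library size as a covariate *Cryab* was at -0.50 and passed the threshold (adjusted p = 0.0446). The oligodendrocyte markers were lower as well, as given above, and their part in the values of this family was not tested.

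Among chaperones well known from heat stress, 5 that passed the filter on reads are given here, beside *Hspb1* above and *Hsp90aa1* and *Hspa1a* further on. *Hsph1* was at 266, 301 and 344 RPM in the lowest, median and highest LSD-treated rat and at 279, 292 and 342 RPM in controls. *Dnajb1*, the J-protein that HSF1 induces with Hsp70, was at 67.6, 74.03 and 84.5 RPM and at 60.9, 72.4 and 82.0 RPM. The ranges of both genes overlapped nearly in full, and the log2 fold change of *Dnajb1* was 0.04 (95% confidence interval -0.07 to 0.15). *Hsp90ab1*, the constitutive cytosolic Hsp90, had 759, 810 and 918 RPM and 746, 803 and 897 RPM (log2 fold change 0.03, 95% confidence interval -0.07 to 0.12). *Hspa8*, the constitutive Hsc70, had 61.5, 71.1 and 88.9 RPM and 58.6, 66.1 and 87.2 RPM (log2 fold change 0.08, 95% confidence interval -0.09 to 0.25), and *Dnaja1*, its J-protein partner, stood at a log2 fold change of 0.04 (-0.14 to 0.23). In each of these 5 genes the interval leaves out a rise of the size seen for *Dnajb14*, the largest of all members (0.49). The intervals of *Hspa8* and *Dnaja1* include the smaller rises of the called *Hspa9*, *Hspa4l* and *Dnajc13* (0.18, 0.21 and 0.22). None of the 5 intervals shows that the groups were equal. With library size as a covariate, *Hsph1*, *Hsp90ab1*, *Hspa8* and *Dnaja1* turned negative and none of the 5 passed. The 6 members with a run of 3 heat shock units had log2 fold changes from 0.01 to 0.10, none past the test. With library size as a covariate all 6 were negative, and *Hspe1* was called lower (-0.24, adjusted p = 0.0484). The 18 members with a pair of units had a median of 0.04 and included 4 that passed the test (22.2%), *Dnajc18*, *Hspa4l*, *Hspa9* and *Hspb6*, while the 44 without had a median of 0.0045 and included 7 that passed (15.9%), against the 15.0% of all genes given above.

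**Figure D3:**
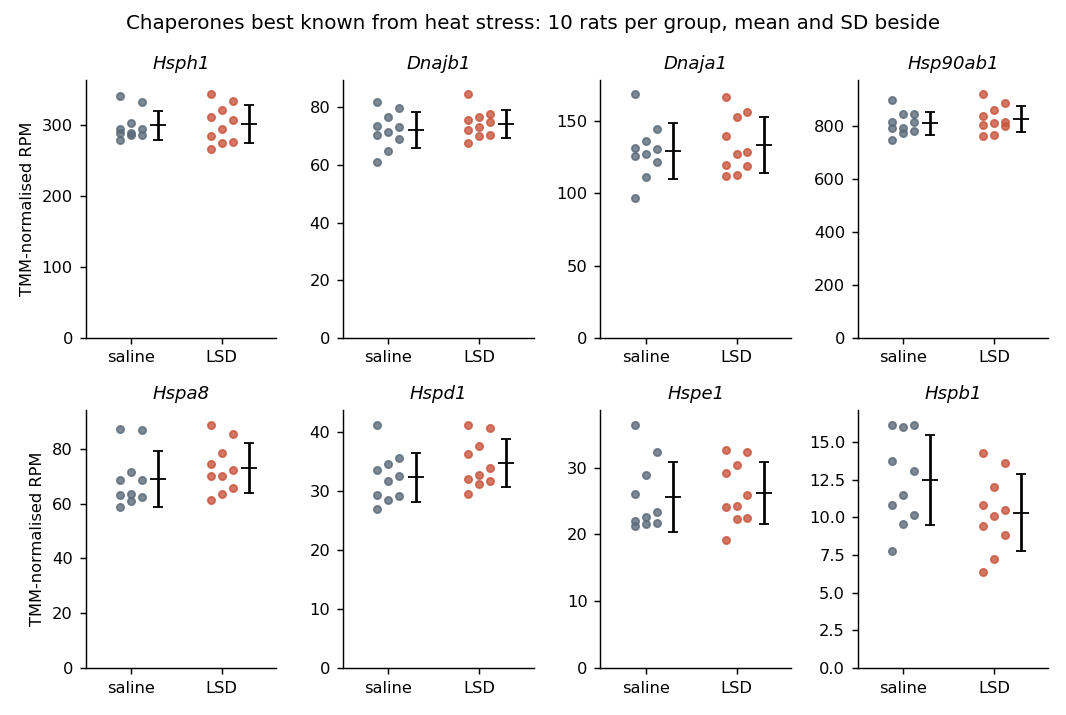
Level of 8 chaperones best known from heat stress in each of 10 control rats (grey) and 10 LSD-treated rats (red), in TMM-normalised RPM on axes that start at 0, with the mean and SD beside each group. The ranges of the groups overlap in every panel, and no gene shown passed the threshold.

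Several of these genes have pseudogenes named after them, and how many reads they share with these was not measured. The GRCr8 annotation names 33 pseudogenes after *Hspa8*, 23 after *Hsp90ab1*, 20 after *Hspd1*, 2 each after *Hspa9* and *Hsp90b1*, 1 after *Hspe1* and none after *Hsph1*, so that the levels of the first 3 genes are uncertain. *Hsp90aa1*, the inducible cytosolic Hsp90, for which 16 pseudogenes are named, had 2 to 8 reads per LSD-treated rat (38 in all) and 0 to 2 per control (10 in all), and *Hspa1a*, an inducible Hsp70, had 1 to 10 and 0 to 10 reads. Neither reached the filter on reads. When every gene with a read was fitted, *Hsp90aa1* came to 1.498 on the log2 scale (adjusted p = 0.0467) and *Hspa1a* to 0.03 (adjusted p = 0.970). The last of the 5 unnamed rows of the matrix, in the place where HTSeq-count gives reads with more than 1 alignment, held 9.26 to 10.4% of reads in LSD-treated rats and 10.02 to 11.3% in controls, and its part in these values was not tested. Of the 6 other genes below the filter, *Cct8l1*, *Dnajb8* and *Dnajc5g* had no read in any rat, and *Dnajb7*, *Dnajc5b* and *Hspb9* had at most 5. *Hspa1b* was not analysed here.

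The cytosolic chaperonin TRiC/CCT is a double ring in which each subunit has a fixed place. None of its 9 genes passed the test with edgeR, 1 (*Cct7*) had an unadjusted p under 0.05, and DESeq2 called that gene. Log2 fold changes ran from -0.11 for *Cct7* (152 to 177 RPM in LSD-treated rats, 152 to 199 RPM in controls, adjusted p = 0.0901) to 0.20 for *Cct8* (86.0 to 129 RPM against 62.1 to 113 RPM, adjusted p = 0.211), 6 of 9 positive, and with library size as a covariate all 9 were negative and none passed. *Tcp1*, the founding subunit, stood at 0.11 (95% confidence interval -0.06 to 0.27). *Cct6b*, a testis-type subunit, was close to the limit of detection with 1 to 16 reads per rat. From rat to rat, however, the subunits varied together. Across the 20 rats, with values centred in each group, the median Pearson correlation over the 28 pairs of the 8 subunits other than *Cct6b* was 0.75 (0.26 to 0.90), against 0.09 over the 2701 pairs of all members. After the part that follows log2 library size was removed from each gene, the medians were 0.59 and 0.07. These pairs share libraries and genes, and no test was made of them.

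Levels also moved with depth. Within groups, the correlation of a member with log2 library size over the 20 rats had a median of 0.44 (-0.65 for *Hspbp1* to 0.88), and was 0.86 for both *Hspd1* and *Hspe1*, 0.87 for *Cct2*, 0.61 for *Cct5*, 0.79 for *Hspa9* and 0.77 for *Hspa4l*. For *Hsp90b1*, *Dnajc18* and *Dnajc3* it was 0.84, 0.72 and 0.69, and for *Dnajb14* it was -0.0088. All 5 deepest libraries lay above the mean of their group in *Hspd1* and *Hspe1*.

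Covariation across rats was tested for 3 pairs of partners, with permutation tests of 100000 resamples adjusted over the 3 pairs. *Hspd1* and *Hspe1*, whose products form the Hsp60 barrel and its Hsp10 lid, lie head to head in GRCr8, with starts 290 bases apart and 211 bases common to their promoter windows, so that the *Hspe1* element shown above belongs to both. Their levels varied together within groups (r = 0.87, rho = 0.82, n = 20, p = 1e-05 for r, the smallest these permutations can give, and 3e-05 for rho, adjusted p = 3e-05 and 9e-05). The relation held among LSD-treated rats (r = 0.85, rho = 0.85, permutation p = 0.00265 and 0.00292, n = 10) and among controls (r = 0.89, rho = 0.88, permutation p = 0.00047 and 0.00162, n = 10), and without the 2 rats farthest from the median (r = 0.80). With library size removed, r fell to 0.51 and rho to 0.46 (permutation p = 0.0213 and 0.0432, adjusted p = 0.032 and 0.0648, n = 20). *Cct2* and *Cct5* also covaried (r = 0.82, rho = 0.64, n = 20, permutation p = 7e-05 and 0.0031, adjusted p = 0.000105 and 0.0046). Without the 2 farthest rats r was 0.75, and within groups r was 0.90 among LSD-treated rats (permutation p = 0.00067, n = 10) and 0.76 among controls (permutation p = 0.0177, n = 10), where rho was 0.48 (permutation p = 0.167). With library size removed, r was 0.73 and rho 0.72 (permutation p = 0.00022 and 0.00057, adjusted p = 0.00066 and 0.00171, n = 20). *Hsph1* and *Dnajb1*, both HSF1 targets, had no relation past the threshold (r = 0.09, rho = 0.13, n = 20, permutation p = 0.703 and 0.571, adjusted p = 0.703 and 0.571). Within groups r was 0.02 among LSD-treated rats and 0.16 among controls, and it was 0.03 without the 2 farthest rats. Scaled by total counts, r was 0.35 and rho 0.39 (permutation p = 0.134 and 0.089, n = 20), and with library size removed r was -0.016. The planned pair of *Hspa8* and *Hsp90aa1* could not be computed, since *Hsp90aa1* was below the filter.

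**Figure D4:**
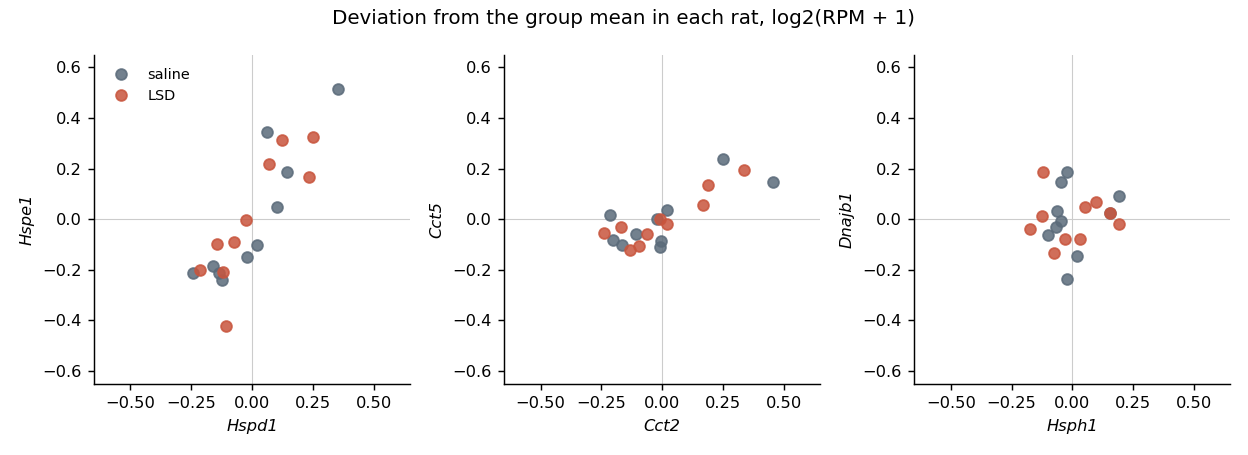
Deviation of each rat from the mean of its group in log2(RPM + 1), for 3 pairs of members, with controls in grey and LSD-treated rats in red. Points follow a line for *Hspd1* and *Hspe1* (r = 0.87), less closely for *Cct2* and *Cct5* (r = 0.82), and form a cloud for *Hsph1* and *Dnajb1* (r = 0.09).

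J-proteins of class A, the general partners of Hsp70, held no gene past the edgeR test, although 2 of 4, *Dnaja3* and *Dnaja4*, had an unadjusted p under 0.05 and were called by DESeq2. *Dnaja4* was lowest, at 43.5, 47.1 and 51.9 RPM in the lowest, median and highest LSD-treated rat and 44.7, 51.4 and 58.6 RPM in controls, with 9 of 10 LSD-treated rats below the median control (log2 fold change -0.15, 95% confidence interval -0.26 to -0.04, adjusted p = 0.0542). The 5 nuclear and RNA-related J-proteins, among them *Dnajc8* and *Dnajc17* of the spliceosome, had fold changes in both directions and none past the test with edgeR or DESeq2, with 3 at an unadjusted p under 0.05. *Dnajc17* was the lowest of class C, at 2.59, 3.64 and 4.19 RPM against 3.52, 4.17 and 5.39 RPM (log2 fold change -0.26, adjusted p = 0.0762), and *Dnajc21*, a ribosome maturation factor, had 11.6 to 17.6 RPM against 9.43 to 17.8 RPM (log2 fold change 0.24, adjusted p = 0.127). Past the test, classes A, B and C held 0, 1 and 3 genes that rose and 0, 2 and 1 that fell.

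The genes that steer the chaperones were counted from fixed lists. Of the 3 heat shock factors and their binding protein *Hsbp1*, none passed the test with edgeR or DESeq2 and none had an unadjusted p under 0.05, and *Hsf1* stood at a log2 fold change of -0.14 (adjusted p = 0.190). Of the 13 Hsp70 exchange and linker co-chaperones, 4 were down-regulated and none was up-regulated. These were *Hspbp1*, the exchange factors *Bag1* and *Bag2* (log2 fold changes -0.21 and -0.29, adjusted p = 0.0464 and 0.0182) and *Sgta*, which hands tail-anchored proteins on (-0.17, adjusted p = 0.0328). Of the 17 Hsp90 co-chaperones, 6 were down-regulated and 1 was up-regulated. *Fkbp4*, the immunophilin of steroid receptor complexes, fell from a median of 217 RPM in controls (183 to 234) to 175 RPM in LSD-treated rats (164 to 197), and its log2 fold change came to -0.27 (adjusted p = 0.0041). *Fkbp8*, the immunophilin of mitochondrial outer membranes, fell by 0.34 on the log2 scale (adjusted p = 0.0118), and *Ahsa1*, which stimulates the ATPase of Hsp90, fell by 0.16 (adjusted p = 0.0186). *Cdc37*, the kinase adaptor, stood at a log2 fold change of -0.16 (adjusted p = 0.0350), whereas its relative *Cdc37l1* was the gene that rose (0.23, adjusted p = 0.0416). *Nudc* and *Pih1d1* were the remaining down-regulated genes (log2 fold changes -0.38 and -0.26, adjusted p = 0.0256 and 0.0194). None of the 12 prefoldin subunits and TRiC/CCT cofactors passed the test with edgeR, 5 had an unadjusted p under 0.05, and DESeq2 called *Vbp1* and *Pdrg1*. Of the 13 genes tested from a list of HSF1-inducible genes, 8 of which are members, *Hspa4l* was up-regulated and *Ahsa1* and *Fkbp4* were down-regulated, with a median log2 fold change of 0.03. Beside these counts stand the 6.48% of all genes that were up-regulated and the 8.54% that were down-regulated, and the lists were written with earlier results of these data known. With library size as a covariate, *Bag1* and *Bag2* of the exchange and linker list, *Ahsa1*, *Fkbp4*, *Ptges3* and *Sugt1* of the Hsp90 list and *Pfdn1*, *Pfdn4* and *Pdrg1* of the prefoldin list passed, all lower, and none of these lists held a gene that rose.

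Longer genes tended to have higher fold changes over the whole table, where span is the number of bases from the first to the last of a gene in GRCr8 (Spearman's rho = 0.36 across 14929 genes), and the same held across the 74 members (rho = 0.32). Neither value has a test, since genes share the libraries. The small heat shock proteins are among the shortest members, 715 to 3487 bases for 5 of them and 30551 bases for *Hspb8*. The down-regulated members span 1014 (*Dnajb3*), 2145 (*Hspb6*), 8241 (*Dnajb2*), 23770 (*Hspbp1*) and 24317 bases (*Dnajc19*). The up-regulated members span 22955 (*Hspa9*), 34098 (*Dnajc18*), 42977 (*Dnajc3*), 43491 (*Dnajb14*), 58059 (*Hspa4l*) and 109532 bases (*Dnajc13*). The ranges overlap through *Hspa9* alone, and every other up-regulated member is longer than every down-regulated one. When the dependence on span was removed in each rat by offsets, 7 members (9.46%) passed the test, against 10.1% of all genes. *Dnajb14*, *Dnajc3*, *Dnajc18*, *Hspa9*, *Hspbp1*, *Dnajb2* and *Dnajc19* remained. *Dnajc13* and *Hspa4l* were then at 0.14 and 0.16 (adjusted p = 0.0560 and 0.0746), and *Hspb6* and *Dnajb3* at -0.12 and -0.27 (adjusted p = 0.205 and 0.132).

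**Figure D5:**
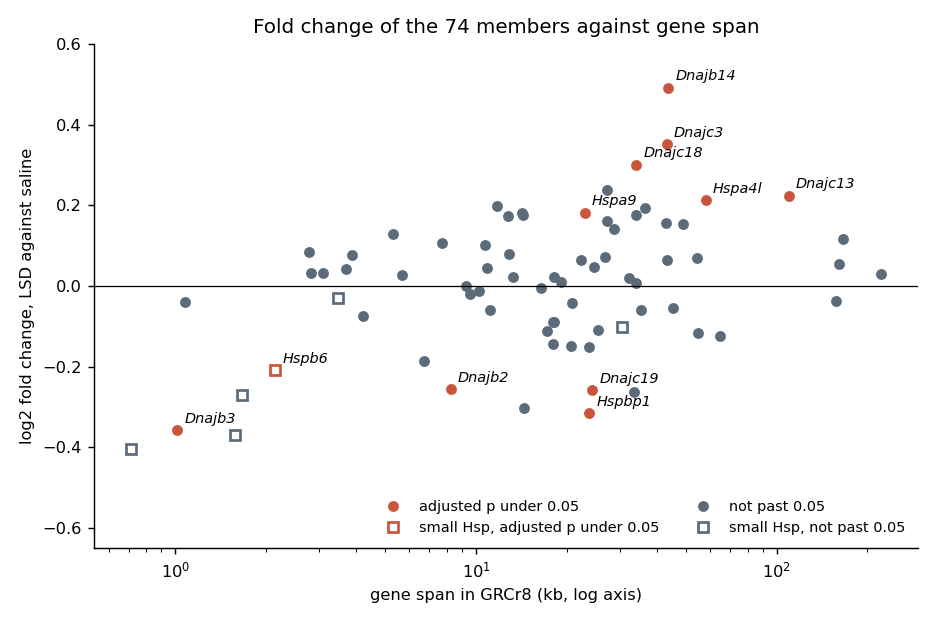
Log2 fold change of the 74 members against the span of the gene in GRCr8, in kilobases on a log axis. Members past the threshold are red and named, and small heat shock proteins are open squares, of which 5 lie at the short end below 0.

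Levels varied less among rats of the LSD group than among controls. The SD of log2(RPM + 1) within a group had a median of 0.13 over the members in LSD-treated rats and 0.17 in controls, and was larger in controls for 57 of the 74 members. Over all genes the medians were 0.15 and 0.19, and the SD was larger in controls for 76.7% of genes, so that the members did as most genes did. *Dnajc3* had SDs of 0.941 RPM around a mean of 13.3 and 2.14 RPM around a mean of 10.4 (n = 10 each). Control libraries also spread more widely in depth, from 11098076 to 24201351 reads against 16346629 to 25552681 in LSD-treated rats. Within groups the level of *Dnajc3* correlated with log2 library size at 0.69. The part of depth in these SDs was not tested.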

How the data were processed

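Poly(A) RNA from the mPFC of 20 rats, 10 per group, was sequenced. The authors used TrimGalore for trimming, Hisat2 for alignment to rn6 and HTSeq-count for counting, and deposited raw counts per gene. Versions, annotation and strand setting are not given in the sources used here, so overlapping and antisense genes cannot be told apart. The 5 unnamed rows at the end of the matrix, 25.5 to 29.0% of reads, were left out. Groups were taken from the sample titles.

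Genes that reached 5 reads in 10 or more rats were tested with edgeR 4.0.16 in R 4.3.3 (TMM, quasi-likelihood F test, Benjamini-Hochberg adjustment over all 16605 genes, threshold 0.05). Alternatives were DESeq2 1.42.0, which the study used, median-ratio factors, total counts, other filters, libraries thinned to the smallest, the replicate number as a block, offsets for gene span, each rat left out and, added after the data were seen, log2 library size (reads on genes) as a covariate or removed from both genes of a pair. Counts were simulated for 10 against 10 rats, and of 16473 genes tested the fit called 69 of 99 changed by 0.5 and 85 of 97 changed by 1 on the log2 scale. It also called 6 unchanged genes. No smaller change was planted, and no gene was made to follow library size. The simulation therefore gives no share for smaller changes or for genes that move with depth. Pairs of genes were compared by Pearson's and Spearman's correlation of log2(RPM + 1) with 100000 permutations, in scipy 1.17.1. Confidence intervals are 95% and rest on the spread between rats, which the labels number as separate samples.

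Genes named are all members past the threshold, a fixed set of the best-known chaperones, the members with the highest and lowest fold change in each family, and, chosen after their values were seen, further members of a role group. The members, lists and pairs were chosen with earlier results of these data known. Promoters are from RefSeq (GRCr8). Protein sequences were not analysed here, and 1 listed gene is not reported here.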

Additional observations from a re-analysis of the deposited data

Results flagged for a closer look

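Within groups of 10 rats, 3 of 66 sets of values had a lowest rat far from the nearest other rat, where about 1 in 20, or 3.3, is expected by chance. *Dnajb14* in controls was 7.05 RPM in saline rat 9, against 10.7 RPM in the next control. *Dnajc13* in controls was 33.9 RPM in the same rat, against 42.1 RPM in the next. *Dnajc17* in LSD-treated rats was 2.59 RPM in LSD rat 1, against 3.28 RPM in the next. The library of saline rat 9 also had the lowest median correlation with the others, at 0.986.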

How the results depend on the processing

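*Dnajb14*, *Dnajc3*, *Dnajc18*, *Hspa9*, *Dnajb2* and *Hspbp1* kept their direction and an adjusted p under 0.05 in the 8 alternative fits other than that with library size as a covariate and in all 20 fits without 1 rat. The count of down-regulated members, 5 as reported, was 9 with DESeq2, which added *Cct7*, *Dnaja3*, *Dnaja4* and *Dnajb13*, 2 with total counts and 2 without the filter, where *Dnajb3*, *Dnajc19* and *Hspb6* were lost, and 3 with span offsets. With library size as a covariate, 1 member was up-regulated (6 as reported) and 3 were down-regulated, and *Cct8* (-0.066), *Dnaja1* (-0.14), *Hsp90ab1* (-0.017), *Hspa8* (-0.095), *Hspb11* (-0.26), *Hspb7* (0.14), *Hspd1* (-0.079), *Hspe1* (-0.24), *Hsph1* (-0.063) and *Tcp1* (-0.045) changed sign. Over all genes that fit called 534 higher and 639 lower, against 1076 and 1418. The cause was not tested. DESeq2 gave 3 members no adjusted p. Without 1 rat, 5 to 11 members were up-regulated, with 11 without saline rat 2, and 3 to 10 were down-regulated, with 10 without saline rat 10 and 3 without LSD rat 2, 3, 5, 7 or 8 or saline rat 3, 4 or 9. *Hspa4l* lost its call without LSD rat 8 (adjusted p = 0.0503). Values near 0 changed sign: *Dnajc5* (-0.029 with span offsets, -0.0029 to 0.028 without 1 rat), *Hspb7* (0.015 with total counts, 0.051 with span offsets, -0.13 to 0.069 without 1 rat), *Hspe1* (-0.0020 to 0.11 without 1 rat) and *Hsph1* (-0.0095 to 0.032 without 1 rat).

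Rats with the same number in both groups correlated at -0.259 to 0.467 after centring, above 0.1 for 6 of 10 pairs. The mean was 0.145, against -0.0157 for rats with different numbers. Only 1 of 10 rats correlated best with its own number, and the numbers were not taken as pairs in the main fit. With the replicate number as a block, 7 members were up-regulated and 5 down-regulated, with *Dnajb13* and *Hsp90b1* gained and *Dnajb3* lost, and the correlation of *Hsph1* and *Dnajb1* was -0.026, and -0.016 with library size removed. Depth limits *Hspb3*, *Cct6b* and *Dnajc22*, which had 10, 16 and 12 reads at most.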
